A study of Mus musculus with 6 samples.

Results

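The genes described here encode basement membrane proteins other than laminin and collagen IV. They are the nidogens (Nid1, Nid2) and the heparan sulfate proteoglycans perlecan (Hspg2) and agrin (Agrn). The others are the calcium-binding SMOC proteins (Smoc1, Smoc2) and hemicentin 1 (Hmcn1). The genes were taken by symbol, 7 of the 41128 features listed for every library. The rule uses no measured value, but earlier results of these data were known when the genes were chosen. The lens capsule is a thick basement membrane that surrounds the lens and is secreted by the lens cells themselves. Laminin and collagen IV each assemble into a sheet. Nidogens bind the laminin γ1 chain and collagen IV, perlecan and agrin add heparan sulfate chains that hold growth factors, and β1 integrins and dystroglycan anchor the cells to the assembled sheet.

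RNA sequencing had been done on whole lenses of mouse embryos at embryonic stage E15.5, with 3 pools of lenses in each of 2 groups. The β1-cKO lenses were beta1 Flox/Flox MLR10 Cre+, that is, homozygous for floxed alleles of Itgb1, the β1-integrin gene, with Cre recombinase from MLR10, a transgene active in lens epithelium and fibers, on a mixed strain background, and 30 lenses were pooled per library. The wild-type lenses were from C57Bl/6 mice, named C57Bl/6 <har> in the design text, and 75 lenses were pooled per library. The wild-type records repeat samples of an earlier series. Genotype, Cre, strain, pool size and origin of the records therefore differ between the groups together and cannot be told apart. The depth was 20036554 to 28095318 counted reads in cKO libraries and 10023049 to 11531139 in wild-type libraries. Itgb1 itself was at 236, 275 and 262 CPM (reads of a gene scaled to the same total in every library) in cKO replicates 1, 2 and 3, and at 402, 424 and 448 CPM in wild-type replicates 1, 2 and 3. The groups did not overlap for Itgb1 (log2 fold change -0.72, adjusted p = 1.63e-05 by limma). The labels do not give the floxed part of the gene, and reads from outside it may be counted in these values.

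In cKO lenses, Nid1 and Hspg2, by far the most abundant of these genes, were lower, and Agrn and Smoc2 were higher. Nid2, Smoc1 and Hmcn1 did not pass the test. The 2 higher and 2 lower genes together made 4 of 7 called, at an adjusted p under 0.05 by limma over 11941 genes, beside 36.9% of all genes tested (20.9% higher, 15.9% lower). The median log2 fold change was 0.13 over the 7 genes and 0.03 over all genes tested. All 7 had at least 1 CPM in 3 or more libraries and were tested, Smoc2 with all 3 cKO and 2 wild-type libraries at that level, so that its place among the tested genes rests on the group where it is high. The libraries of the groups did not overlap for 5 of the 7 (Nid1, Hspg2, Agrn, Smoc2 and Hmcn1), beside 48.1% of all genes tested. Of these, 3 were higher and 2 lower in cKO, beside 26.9% and 21.2% of all genes. These shares rest on so few genes that nothing particular to the group of 7 is read from them.

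**Figure D1:**
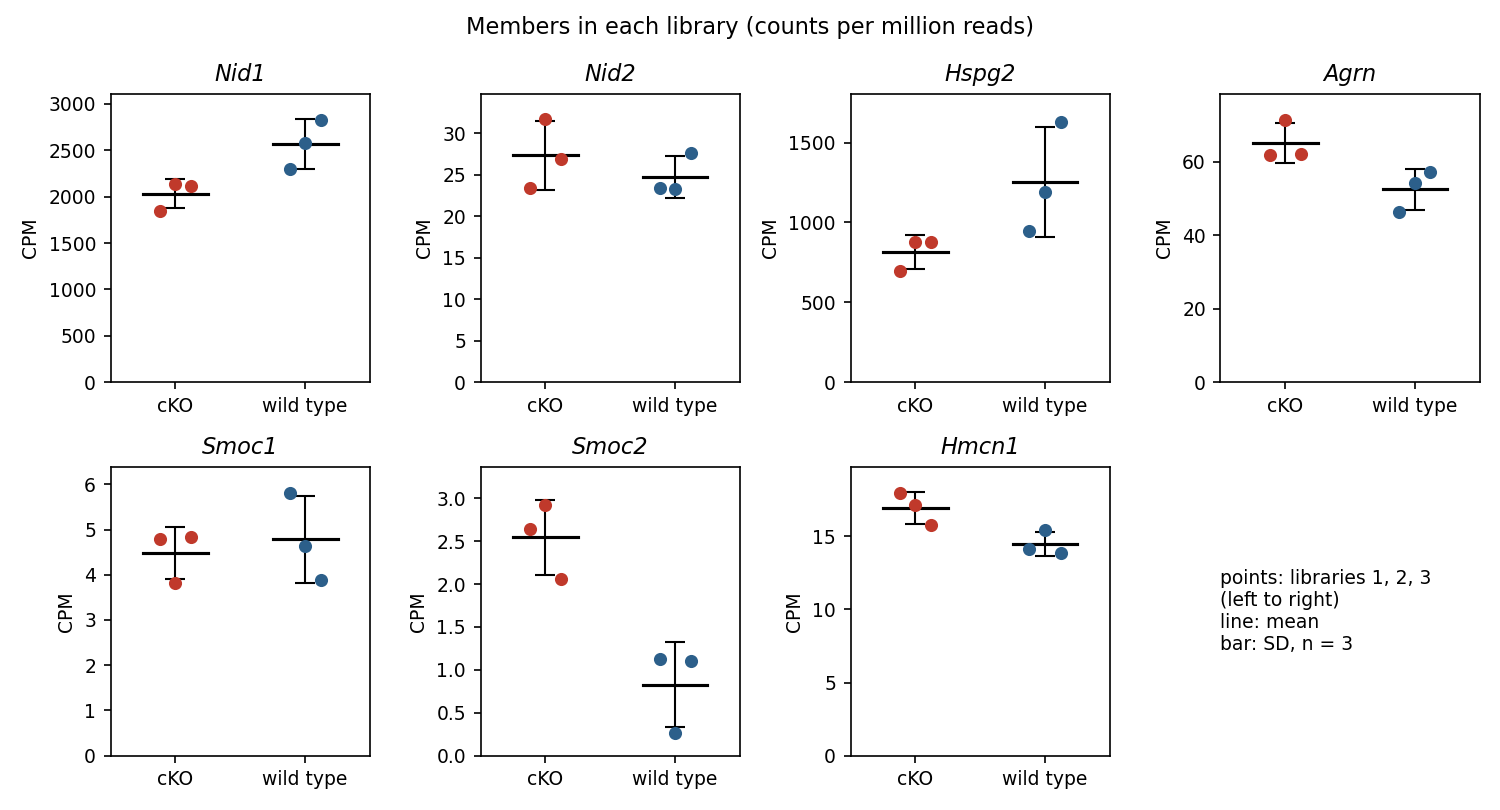
CPM of each gene in the 3 cKO libraries (left) and the 3 wild-type libraries (right), with mean and SD. All cKO libraries lie below all wild-type libraries for Nid1 and Hspg2, and above them for Agrn, Smoc2 and Hmcn1, while Nid2 and Smoc1 overlap.

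Levels between genes were compared as RPKM (CPM divided by gene length in kilobases), since the deposited gene lengths ran from 2832 bases for Smoc2 to 21191 for Hmcn1. Nid1 stood at 336 ± 26.6 RPKM in cKO and 425 ± 43.9 RPKM in wild type (SD, n = 3 each). That placed it at rank 73 in cKO and rank 62 in wild type among 29151 features with a finite RPKM in every library. Nid1 alone made 81.8% to 82.9% of the summed RPKM of the 7 genes in cKO libraries and 78.6% to 82.8% in wild-type libraries. Hspg2 followed at 57.1 ± 7.41 RPKM in cKO and 87.7 ± 24.1 in wild type. It took 13.2% to 14.4% of the sum in cKO and 14.4% to 19.1% in wild type.

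The other 5 genes were far below Hspg2 in both groups. Agrn was at 7.02 ± 0.588 RPKM in cKO and 5.66 ± 0.600 in wild type, and Nid2 at 5.59 ± 0.854 in cKO and 5.06 ± 0.515 in wild type. The libraries of these neighbours in the order overlapped in wild type, but not in cKO, where the lowest Agrn value (6.67) lay just above the highest Nid2 value (6.49). Smoc1 was at 1.28 ± 0.166 RPKM in cKO and 1.37 ± 0.277 in wild type. Hmcn1 was at 0.800 ± 0.0523 RPKM in cKO and 0.683 ± 0.0394 in wild type. Smoc2 was at 0.898 ± 0.154 RPKM in cKO, where it overlapped Hmcn1, and at 0.293 ± 0.173 RPKM in wild type, below every Hmcn1 value. The order was thus the same in both groups down to Smoc1, and Smoc2 and Hmcn1 took opposite places at the bottom. The place of Smoc2 depends on the gene length used, since its exons in GENCODE M21 add to 6951 bases against the deposited 2832.

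**Figure D2:**
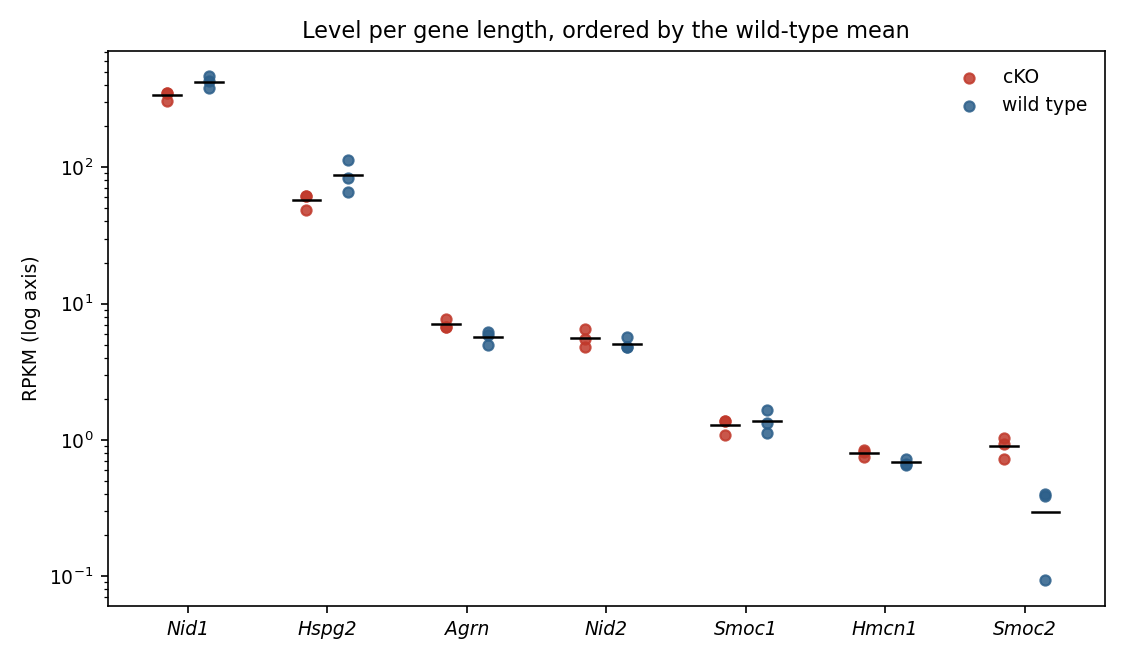
RPKM on a log axis for each gene in cKO (left of each pair) and wild-type libraries (right), with lines at the means of 3 libraries. Nid1 is highest in every library, Hspg2 second, and Smoc2 is lowest in wild type but not in cKO.

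Nid1 (ENSMUSG00000005397; GRCm38 chromosome 13, 13437551 to 13512269, plus strand, protein coding) encodes nidogen 1, the main bridge between the laminin γ1 chain and collagen IV. It had 1848, 2138 and 2115 CPM in cKO replicates 1, 2 and 3, against 2296, 2577 and 2827 CPM in wild-type replicates 1, 2 and 3. Every cKO library was below every wild-type library, and replicate 1 was the lowest of its group in both. The mean fell by 20.8% to 2034 ± 161 CPM in cKO, against 2567 ± 265 CPM in wild type. The log2 fold change was -0.33 (SE 0.0900, 95% interval -0.53 to -0.14, adjusted p = 0.0109 by limma), and the call held under each alternative and with each library left out.

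Nid2 (ENSMUSG00000021806; chromosome 14, 19751265 to 19811787, plus strand, protein coding) encodes nidogen 2, which shares the domain plan and main binding partners of nidogen 1. It had 23.4, 31.7 and 26.8 CPM in cKO replicates 1, 2 and 3, against 23.3, 23.2 and 27.6 CPM in wild-type replicates 1, 2 and 3. The groups overlapped, with the highest value in cKO replicate 2. The log2 fold change was 0.13 (SE 0.112, 95% interval -0.11 to 0.37) and did not pass the test (adjusted p = 0.383 by limma). Corrected for GC content and length, it was 0.27 (adjusted p = 0.0509). Of the exon bases of Nid2, 8.45% lie over exons of Rtraf on the opposite strand, and the library kit does not mark strand. Rtraf, listed as 2700060E02Rik, was at 78.8 ± 1.88 CPM in cKO lenses and 59.4 ± 0.595 CPM in wild-type lenses, and its part in the Nid2 values was not tested.

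Hspg2 (ENSMUSG00000028763; chromosome 4, 137468769 to 137570630, plus strand, protein coding) encodes perlecan, a large modular proteoglycan that carries heparan sulfate chains at its N-terminal domain and binds nidogen. It had 694, 878 and 877 CPM in cKO replicates 1, 2 and 3, against 948, 1191 and 1627 CPM in wild-type replicates 1, 2 and 3. All cKO libraries lay below all wild-type libraries, but the wild-type libraries were far apart, and wild-type replicate 1 stood only a little above the highest cKO library. The mean fell by 34.9%, to 817 ± 106 CPM in cKO, against 1255 ± 344 CPM in wild type. The log2 fold change was -0.59 (SE 0.188, 95% interval -1.03 to -0.16, adjusted p = 0.0406 by limma). The call was lost without any 1 of the cKO replicates (-0.48, -0.65 and -0.65 without replicate 1, 2 and 3, adjusted p = 0.152, 0.0622 and 0.0740), and the value was -0.39 without wild-type replicate 3 (adjusted p = 0.0202).

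The longest transcript of Hspg2 held 60.9% G and C, the highest share among the 7 genes, whose lowest was 47.7% for Hmcn1. Corrected for GC content and length, its value was -0.44 (SE 0.128, adjusted p = 0.0312). Lamc1 and Lama1, laminin chain genes named here after their values were seen, had the same wild-type order, which Lamb2, Lama3, Lamb3 and Lamc3 did not have. Lamc1 was at 205, 282 and 270 CPM in cKO and 299, 354 and 424 CPM in wild-type replicates 1, 2 and 3. Lama1 was at 209, 278 and 262 CPM in cKO and 321, 361 and 435 CPM in wild type. In both Lamc1 and Lama1, too, replicate 1 was the lowest of its group. What the libraries share in this order was not tested.

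Agrn (ENSMUSG00000041936; chromosome 4, 156165290 to 156197488, minus strand, protein coding) encodes agrin, which binds laminin at its N-terminal end and dystroglycan through its C-terminal laminin G domains. It had 61.9, 71.5 and 62.1 CPM in cKO replicates 1, 2 and 3, against 46.3, 54.2 and 57.1 CPM in wild-type replicates 1, 2 and 3. Every cKO library was above every wild-type library, with a gap of a few CPM between the nearest. The mean was 24.1% higher, at 65.2 ± 5.46 CPM in cKO lenses and 52.5 ± 5.57 CPM in wild-type lenses. The log2 fold change was 0.31 (SE 0.0935, 95% interval 0.11 to 0.51, adjusted p = 0.0198 by limma). The call was lost without cKO replicate 2 (0.24, adjusted p = 0.0805) and without wild-type replicate 1 (0.22, adjusted p = 0.0799), whereas correction for GC content and length gave 0.46 (adjusted p = 0.000187).

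The promoter windows of Hspg2, Nid1 and Agrn are shown because the first pair fell and Agrn rose in the same lenses. Windows (RefSeq, GRCm38.p6, 250 bases before to 50 after the start) were matched for 4 of the 7 genes, Hmcn1 being the other; Nid2, Smoc1 and Smoc2 were not matched. The letters GGGCGG (a GC box), TGANTCA (an AP-1 site) and GCGTGGGCG (an EGR site) were searched on both strands, with overlaps between matches counted. Capitals mark GGGCGG and its reverse complement CCGCCC, and each sequence reads 5′ to 3′ on the gene's strand. The Hspg2 window is chr4:137468553-137468852 (plus strand), the Nid1 window chr13:13437352-13437651 (plus strand), and the Agrn window at the gene's outer start chr4:156197439-156197738 (minus strand).
Hspg2: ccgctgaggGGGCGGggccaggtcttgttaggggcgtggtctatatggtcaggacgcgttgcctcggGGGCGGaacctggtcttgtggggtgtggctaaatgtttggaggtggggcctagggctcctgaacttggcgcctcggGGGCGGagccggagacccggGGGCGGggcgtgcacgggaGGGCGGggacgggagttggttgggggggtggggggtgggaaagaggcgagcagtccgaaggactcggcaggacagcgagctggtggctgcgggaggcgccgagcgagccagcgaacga
Nid1: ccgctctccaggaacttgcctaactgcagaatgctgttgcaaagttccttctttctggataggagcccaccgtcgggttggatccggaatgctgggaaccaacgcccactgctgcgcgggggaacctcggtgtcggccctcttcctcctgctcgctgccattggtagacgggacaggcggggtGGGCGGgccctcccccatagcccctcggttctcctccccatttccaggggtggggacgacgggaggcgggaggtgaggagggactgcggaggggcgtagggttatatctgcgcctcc
Agrn: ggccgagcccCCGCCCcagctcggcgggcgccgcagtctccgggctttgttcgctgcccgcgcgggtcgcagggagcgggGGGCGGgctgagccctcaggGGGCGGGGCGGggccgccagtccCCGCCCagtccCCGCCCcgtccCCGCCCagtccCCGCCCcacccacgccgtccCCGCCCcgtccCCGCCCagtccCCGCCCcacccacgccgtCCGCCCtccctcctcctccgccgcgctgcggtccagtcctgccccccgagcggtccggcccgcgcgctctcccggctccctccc

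The Hspg2 window held 5 GC boxes, all on the gene's strand, and the Nid1 window held 1. The Agrn window held 12, of which 3 were on the gene's strand and 9 on the other, and a second Agrn window at an inner start held 2. The Hmcn1 window held 0. Among 32851 promoter windows of the same length, 35.7% held at least 1 GC box, 2.71% held at least as many as Hspg2 and 0.0213% at least as many as Agrn. The windows also differed in G and C, at 83.3% for Agrn (61.3% at its inner start) and 70.3% for Hspg2. Nid1 had 64.7% and Hmcn1 63.3%. The shares were taken over all windows, not over windows of like G and C content, so no excess of GC boxes is read from them. No match to the AP-1 letters (in 7.81% of all windows) or the EGR letters (in 0.612%) was found in any of the 5 windows of these genes. A match describes letters only.

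Smoc2 (ENSMUSG00000023886; chromosome 17, 14279506 to 14404790, plus strand, protein coding) encodes a secreted calcium-binding protein of the SPARC family. It had 2.65, 2.92 and 2.06 CPM in cKO replicates 1, 2 and 3, against 1.13, 0.263 and 1.10 CPM in wild-type replicates 1, 2 and 3. These values rest on 53, 59 and 58 reads in the cKO libraries and on 13, 3 and 11 reads in the wild-type libraries. The groups did not overlap, and wild-type replicate 2 was far below its neighbours. The mean was 3.07-fold higher, at 2.54 ± 0.436 CPM in cKO lenses and 0.829 ± 0.491 CPM in wild-type lenses. On the scale of log2(CPM + 1), where a low gene shows less than its full change, the log2 fold change was 0.99 (SE 0.201, 95% interval 0.55 to 1.42, adjusted p = 0.00215 by limma). It was 1.69 with a pseudocount of 0.1 and 1.58 with edgeR on recovered reads, and the call held with each library left out.

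Smoc1 (ENSMUSG00000021136; chromosome 12, 81026808 to 81186414, plus strand, protein coding) encodes the paralog of SMOC2, known from Xenopus as an antagonist of BMP signalling. It had 4.79, 3.81 and 4.84 CPM in cKO replicates 1, 2 and 3, against 5.81, 4.65 and 3.89 CPM in wild-type replicates 1, 2 and 3. The groups overlapped. The log2 fold change was -0.07 (SE 0.149, 95% interval -0.39 to 0.25, adjusted p = 0.745 by limma), and its sign turned with correction for GC content and length, without cKO replicate 2 and without wild-type replicate 1. These values rest on 309 reads over the cKO libraries and 159 over the wild-type libraries.

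Hmcn1 (ENSMUSG00000066842; chromosome 1, 150562524 to 150993435, minus strand, protein coding) encodes hemicentin 1, a very long immunoglobulin-domain protein whose counterpart in Caenorhabditis elegans links adjacent basement membranes. It had 17.97, 17.1 and 15.8 CPM in cKO replicates 1, 2 and 3, against 14.1, 15.4 and 13.9 CPM in wild-type replicates 1, 2 and 3. The cKO libraries were all above the wild-type libraries, the nearest being cKO replicate 3 and wild-type replicate 2. The log2 fold change was 0.21 (SE 0.0963, 95% interval 0.01 to 0.42) and did not pass the test (adjusted p = 0.0995 by limma), nor did it in any alternative.

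**Figure D3:**
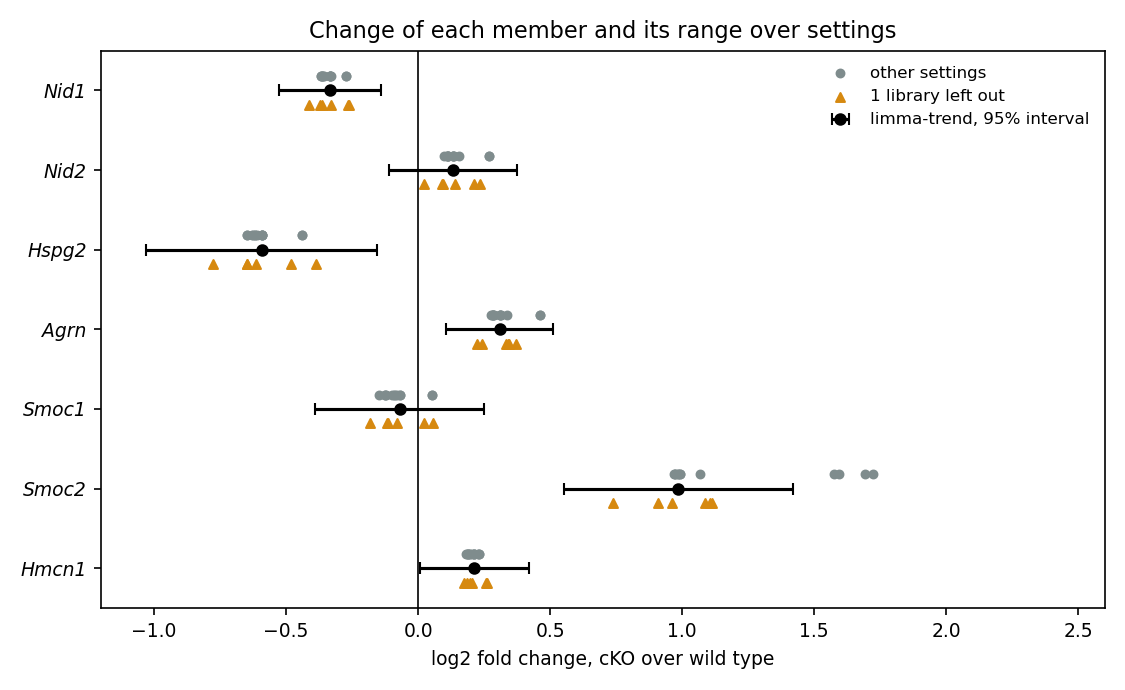
Log2 fold change of each gene, cKO over wild type, with its 95% interval (black), the values under other settings (grey) and with 1 library left out (orange). Nid1 and Hspg2 lie below 0 and Agrn and Smoc2 above 0 under every setting drawn, while the Smoc1 values lie on both sides; the Smoc2 values from 1.58 upward come from count models or a smaller pseudocount.

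Because the reads of 1 library share depth and scaling, related genes were also compared as RPKM ratios within a library. Nid1 over Nid2 was 63.8, 54.5 and 63.6 in cKO replicates 1, 2 and 3, against 79.5, 89.6 and 82.6 in wild-type replicates 1, 2 and 3. Hspg2 over Agrn was 7.27, 7.97 and 9.17 in cKO, against 13.3, 14.3 and 18.5 in wild type. For either pair, every cKO ratio was below every wild-type ratio. For Hspg2 over Agrn this follows from the single genes, since every cKO library was lower for Hspg2 and higher for Agrn. The permutation p of that ratio was thus fixed by those differences and adds nothing to them. The mean log2 ratio differed by -0.47 for Nid1 over Nid2 and by -0.91 for Hspg2 over Agrn (cKO minus wild type; exact two-sided permutation p = 0.1 each, adjusted p = 0.1 over 3 ratios). That is the smallest p that 3 against 3 libraries allow, so neither difference could pass a threshold of 0.05. Smoc1 over Smoc2 was 1.47, 1.06 and 1.899 in cKO, against 4.17, 14.3 and 2.87 in wild type, a mean log2 difference of -1.95 (exact permutation p = 0.1). The 14.3 comes from the library with 3 Smoc2 reads, and without it the difference was -1.27. Smoc2 passed the filter through the group where it is high, so nothing is read from the p of this ratio.

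**Figure D4:**
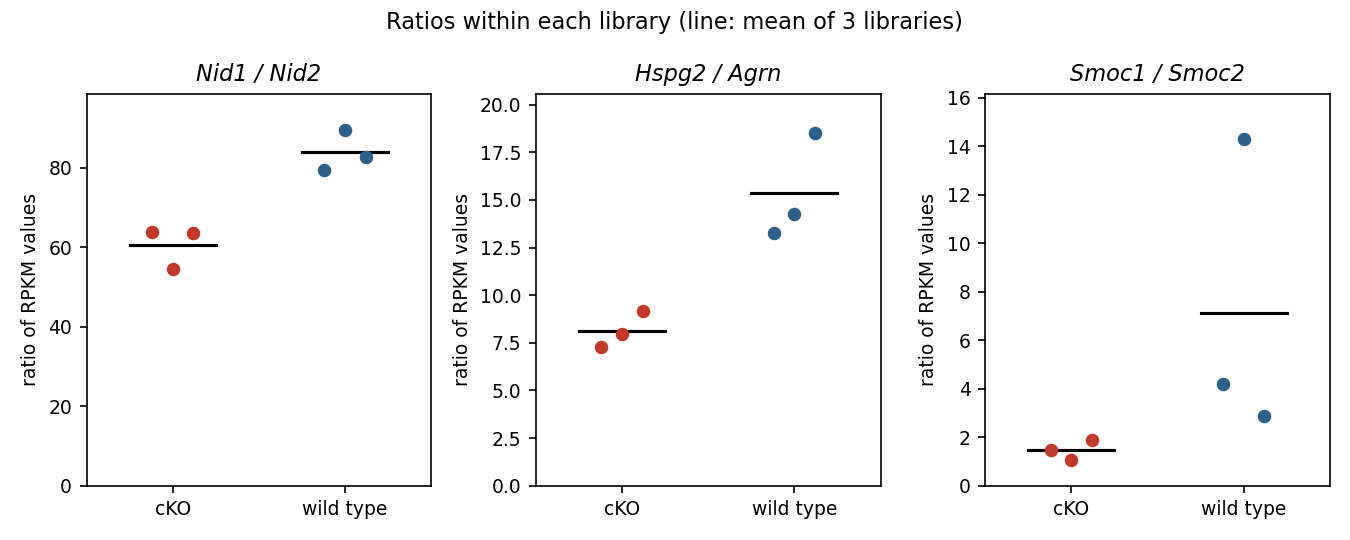
RPKM ratio of each pair within a library, cKO left and wild type right, with lines at the means of 3 libraries. The cKO libraries are below the wild-type libraries in all 3 panels, and the wild-type Smoc1 over Smoc2 ratios run from 2.87 to 14.3.

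Nid1, Hspg2, Agrn and Nid2 were also set beside Lamc1, the gene of the laminin γ1 chain that nidogen binds, a ratio chosen after the values were seen and therefore given without a test. Nid1 was at 12.3, 10.4 and 10.7 times the Lamc1 RPKM in cKO replicates 1, 2 and 3, and at 10.5, 9.96 and 9.12 times in wild-type replicates 1, 2 and 3. Hspg2 was at 1.95, 1.80 and 1.88 times Lamc1 in cKO and at 1.83, 1.95 and 2.22 times in wild type. The groups overlapped in both ratios. The Agrn ratio was 0.233 ± 0.0326 in cKO and 0.131 ± 0.0101 in wild type, and the Nid2 ratio 0.184 ± 0.0138 in cKO and 0.118 ± 0.0125 in wild type. These 2 ratios did not overlap, with cKO above wild type. Lamc1 itself was lower in every cKO library than in any wild-type library (log2 fold change -0.50). With Agrn higher in every cKO library, its ratios to Lamc1 could not overlap. The Nid2 values by themselves overlapped between the groups, so the separation of the Nid2 ratio depends on the Lamc1 values.

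Related genes were counted in 6 lists, with the same fit and threshold as above. Beside these counts, and those of the marker lists below, 36.9% of all genes tested were called (20.9% higher, 15.9% lower). No list was tested against these shares. Of 11 laminin chain genes tested, cKO lenses had 2 higher and 4 lower, with a median log2 fold change of -0.35 beside 0.03 over all genes tested. The chains of laminin-111, Lama1 (-0.57), Lamb1 (-0.35) and Lamc1 (-0.50), all fell, as did Lama2 (-1.53), while Lama4 (0.58) and Lamb3 (0.58) rose. Lamb3 was under 1 CPM in every wild-type library and reached the filter through the cKO libraries alone. Lamb1 and Lamc1 were picked for naming after their values were seen. Of 8 basement membrane collagen genes, 2 rose, with a median of 0.21. They were Col18a1 (42.0 ± 6.68 CPM in cKO, 25.1 ± 3.54 in wild type; 0.72) and Col15a1 (0.77), whose collagens carry glycosaminoglycan chains. The abundant collagen IV genes did not pass the test, with Col4a1 at 1873 ± 302 CPM in cKO lenses and 1932 ± 334 CPM in wild-type lenses, and Col4a2 at -0.17 (adjusted p = 0.190 by limma).

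Of 15 other capsule linkers tested, 3 were higher and 7 lower, with a median of -0.17. Fbln1, which encodes the extracellular matrix protein fibulin 1, fell to 18.2 ± 3.26 CPM in cKO, against 33.4 ± 2.10 CPM in wild type. Frem2, a Fraser complex gene, had a log2 fold change of -1.33, Npnt of -0.52, and Sparc, which encodes a collagen-binding relative of the SMOC proteins, of 0.47, all past the test. Hmcn2, the paralog of Hmcn1, was named after its values were seen: it stood at 2.34 ± 0.115 CPM in cKO lenses and 4.77 ± 0.509 CPM in wild-type lenses, a log2 fold change of -0.78 (adjusted p = 0.000602 by limma).

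Perlecan and agrin carry heparan sulfate, and of 25 genes tested for the synthesis and editing of that chain 3 were higher and 8 lower, with a median of -0.09. The 3 higher genes were Hs3st1 (0.37), Hs3st3a1 (0.48) and Hs3st3b1 (0.88), which encode 3-O-sulfotransferases. The fourth of that family tested, Hs3st5, did not pass the test (0.11). The 6-O-sulfotransferase genes Hs6st1 (-0.50) and Hs6st2 (-0.65) fell, and so did Sulf1 (-0.61) and Sulf2 (-0.35), which encode the sulfatases that remove 6-O-sulfates outside the cell. Slc35b2, which encodes a transporter of the sulfate donor into the Golgi, fell to 42.7 ± 1.48 CPM in cKO, against 59.8 ± 2.70 CPM in wild type. Of the chain polymerase genes, Ext2 fell (-0.22), and Ext1 did not pass the test (0.14, adjusted p = 0.225 by limma).

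Of 10 cell surface heparan sulfate proteoglycan genes tested, 3 were higher and 1 lower, with a median of 0.03. Sdc4, which encodes the syndecan found at focal adhesions, rose to 50.5 ± 2.90 CPM in cKO, against 29.6 ± 0.636 CPM in wild type. Gpc4 (0.52) and Sdc1 (0.29) rose and Gpc1 fell (-0.32). Of 28 genes of agrin receptors and of the dystroglycan complex and its glycosylation, 2 were higher and 6 lower, with a median of -0.07, and 10 were lower with TMM or RLE scaling, limma-voom or edgeR. Dag1, which encodes the agrin and perlecan receptor dystroglycan, was at 137 ± 24.8 CPM in cKO lenses and 144 ± 30.96 CPM in wild-type lenses (adjusted p = 0.803 by limma). Lrp4, which encodes the agrin receptor of the neuromuscular junction, differed by 0.04 on the log2 scale and did not pass the test (adjusted p = 0.811 by limma). Dmd, the dystrophin gene, rose by 0.61, while Pomt1 (-0.45), Sspn (-0.67) and Dpm3 (-0.52) fell.

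**Figure D5:**
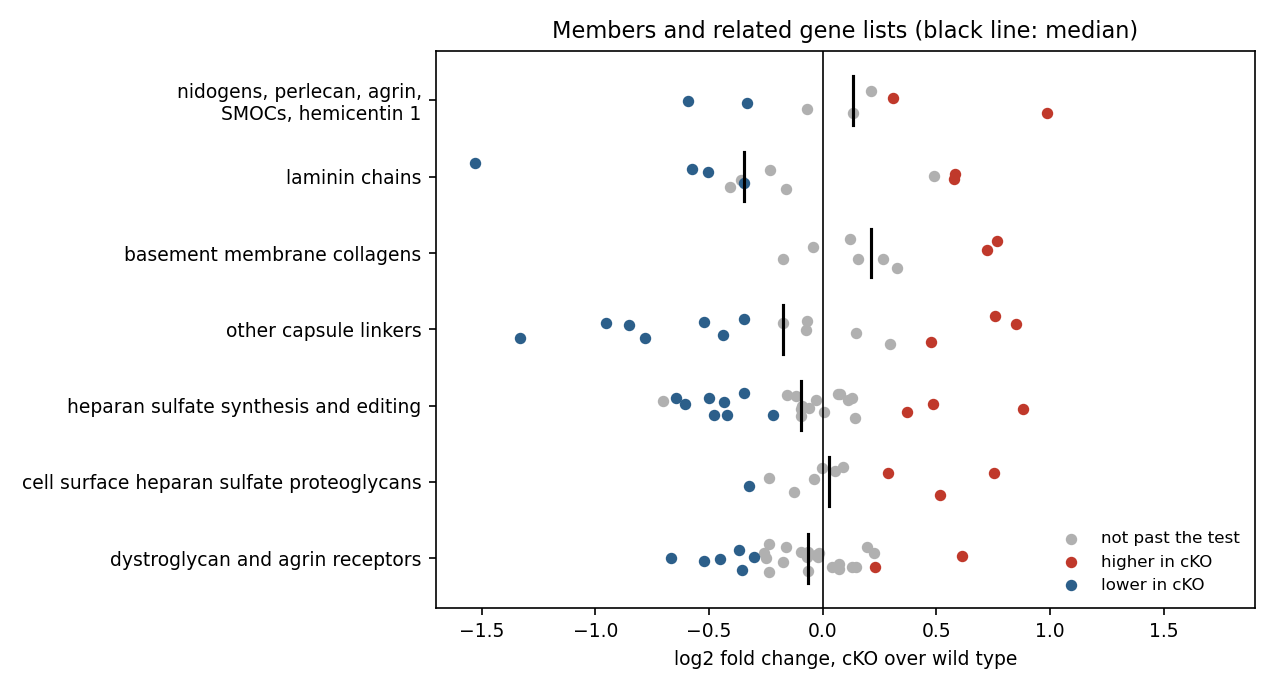
Log2 fold change, cKO over wild type, of every tested gene of the 7 described here (top) and of 6 related lists, coloured by the test, with a black line at each median. The 7 genes lie on both sides of 0 with a median of 0.13, the laminin chains mostly below 0 with a median of -0.35.

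Vessels and other tissue around the lens also make nidogens, perlecan and agrin, and in whole lenses fewer cells of a type and less RNA per cell cannot be told apart. Of 15 endothelial markers, 11 were higher and 0 lower in cKO, and their summed level was 267 to 315 CPM in cKO libraries and 172 to 206 CPM in wild-type libraries. Cdh5, Kdr and Tek, the most abundant by the mean of all 6 libraries, had log2 fold changes of 0.63, 0.72 and 1.05. Eng, which in wild type was above Tek, did not pass the test (0.18, adjusted p = 0.128 by limma). Of 6 pericyte markers tested, 4 were higher and 1, Notch3, lower (143 to 167 CPM in cKO, 103 to 130 CPM in wild type). The gap in that summed level came from Rgs5, whose mean rose from 41.4 ± 2.84 CPM (wild type) to 87.3 ± 6.93 CPM (cKO). Without Rgs5, the summed level of the pericyte list overlapped between the groups. Of 13 macrophage markers listed, 11 were tested and called higher (summed level of the list 31.9 to 43.8 CPM in cKO, 11.8 to 14.9 CPM in wild type). Tyrobp and Fcer1g, like Sox17 among the endothelial markers, were under 1 CPM in every wild-type library. Cd68, C1qa, C1qb and Ctss, and Prrx1 among the periocular mesenchyme markers, were under 1 CPM in most wild-type libraries. All of these are named because they reached the filter through the cKO libraries, so being tested favoured being higher. Emr1 and Aif1 were not tested. Of 6 periocular mesenchyme markers tested, 4 were higher and 0 lower (38.1 to 57.8 CPM in cKO, 21.5 to 24.8 CPM in wild type), and Foxc2 was listed at 0 in every library. The part of these cells in the higher Agrn and Smoc2 values was not tested.

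Lens markers gave the background of the tissue itself. Of 8 lens epithelium markers tested, 1 was higher and 4 lower (1122 to 1313 CPM in cKO, 1218 to 1305 CPM in wild type), with Sox2 and Mab21l1 listed at 0 throughout. Of 16 lens fiber markers tested, 2 were higher and 6 lower (194939 to 220488 CPM in cKO, 211282 to 226313 CPM in wild type), with Sox1 listed at 0 throughout. Of the retina and pigment epithelium markers, 3 were tested and 0 called (30.4 to 35.1 CPM in cKO, 27.5 to 43.0 CPM in wild type). Most of that sum was Mitf. Of the surface ectoderm and cornea markers 0 reached the filter (0.534 to 1.05 CPM in cKO, 0.898 to 1.05 CPM in wild type), and Krt12 was listed at 0.

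For each of the 4 called genes, the 2 named genes with the nearest profile were found among 11272, by the mean absolute difference of centred log2(CPM + 1) values over the 6 libraries. Nearest to Nid1 were Uggt1 and Gtpbp1, at 0.0181 and 0.0196 on the log2 scale. Nearest to Hspg2 were Adamts4 and Ptprf, at 0.0408 and 0.0412. Nearest to Agrn were Mib1 and Otub2, at 0.0202 and 0.0240, and nearest to Smoc2 were Apoo and Laptm5, at 0.123 and 0.124.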

How the data were processed

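RNA from pooled lenses was poly(A)-selected, made into libraries with a kit that does not mark strand and read as 50-base single ends, per the labels' protocols. The authors deposited CPM and RPKM per gene, per the file headers; edgeR and GRCm38 are named in the submitters' processing notes. The sources used here do not name the aligner, counter, annotation or treatment of reads that match several places. All CPM values were whole multiples of 1 read (tolerance 0.02 reads; 0.0356 to 0.0998 CPM a read), so reads were recovered for the count-based alternatives. CPM over RPKM gave gene lengths.

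The main test was limma-trend (limma 3.58.1, R 4.3.3) on log2(CPM + 1) with robust moderation, on genes reaching 1 CPM in 3 or more libraries, with Benjamini-Hochberg adjustment over all 11941. Alternatives were TMM and RLE scaling, TMM without crystallins, no filter, a filter at a mean of 5 CPM, a block for replicate number, GC content and length correction, a pseudocount of 0.1, limma-voom, edgeR 4.0.16 and DESeq2 1.42.0 on recovered reads, thinned reads and each library left out. Simulated counts with known changes were used to test the scripts. The replicates are separate pools.

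Members and lists were chosen with earlier results of these data known. The text names all members, Itgb1, up to 4 genes with the smallest adjusted p per related list, up to 3 abundant genes per marker list, and the 2 nearest profiles per called member; exceptions are marked or serve as partners or family members of those named. Coordinates are from GENCODE M21. Of the 32-base words of the member transcripts, 0% (Hspg2, Agrn) to 7.85% (Nid2) occur in other genes.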

Additional observations from a re-analysis of the deposited data

How the results depend on the processing

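The directions of Nid1, Hspg2, Agrn, Smoc2, Nid2 and Hmcn1 held under all alternatives run. With 1 library left out, the log2 fold changes ran from -0.41 to -0.26 for Nid1, -0.78 to -0.39 for Hspg2, 0.22 to 0.37 for Agrn, 0.74 to 1.11 for Smoc2, 0.02 to 0.23 for Nid2, 0.17 to 0.26 for Hmcn1 and -0.18 to 0.05 for Smoc1, whose value was 0.02 without cKO replicate 2 and 0.0549 without wild-type replicate 1. The members called numbered 1 to 2 higher and 1 to 2 lower, Hspg2 losing its call without any 1 cKO replicate and Agrn without cKO replicate 2 or wild-type replicate 1; the cause was not tested. Under the other settings, the Nid1, Hspg2 and Agrn calls held, and so did that of Smoc2 wherever it was tested. A mean of at least 5 CPM gave 1 member higher because it leaves out Smoc1 and Smoc2. The Smoc1 value turned to 0.0527 with correction for GC content and length, with or without the replicate block; the cause was not tested.

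Whether replicate numbers pair the libraries is not settled by these data. Deviations from the group means correlated at 0.33, -0.03 and 0.15 between same-numbered libraries 1, 2 and 3. The first was the highest of any cKO and wild-type pair, but cKO replicate 2 correlated best with wild-type replicate 3 (0.21). With the replicate block, 5165 genes were called against 4403, and the same members were called (Hspg2 adjusted p = 1.59e-07 by limma); with correction for GC content and length added, Nid2 passed at 0.27 (adjusted p = 0.0150 by limma). For each of the 3 ratios, permuting signs within the block gave an exact p = 0.25, the smallest that 3 pairs allow. Over the alternatives, 22.1% to 43.3% of the genes tested were called.

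Counts in the related lists moved by over 1.5 times in these cases. The dystroglycan list had 10 lower, against 6, with TMM, TMM without crystallins, RLE, limma-voom and edgeR, and 1 higher, against 2, with RLE, no filter, correction for GC content and length, limma-voom, edgeR, DESeq2 or any library but wild-type replicate 1 left out. Laminins had 7 lower, against 4, with the block, and 1 higher, against 2, with thinned reads or a mean of at least 5 CPM. Collagens had 1 lower, against 0, with the block or DESeq2, and 5 higher, against 2, with block and GC correction together. Surface proteoglycans had 0 lower, against 1, with GC correction, and heparan sulfate genes 5 lower, against 8, without cKO replicate 3. Depth limits Smoc2 most, at 3 to 13 reads in a wild-type library.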
